A study of Mus musculus with 48 samples.

Results

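Rn7s1, Rn7s2, Rn7sk, Rmrp and Rpph1 are the abundant housekeeping noncoding RNAs of this mouse mammary gland series. They were chosen by their share of TPM, the expression unit of the deposited table of 55487 genes, and taken from it by symbol: they are 5 symbols in 6 rows, since Rmrp has 2 rows. All 6 rows passed the filter on low values that left 19743 genes for testing. Since this share chose them, their levels and shares are a description, and only differences between groups were tested. RNA came from the thoracic mammary gland of mice carrying MMTV-rtTA, a doxycycline-dependent activator driven by a mammary tumour virus promoter that is active mainly in epithelium, together with tet-op-Esr1 or tet-op-CYP19A1. Esr1 encodes estrogen receptor alpha, and CYP19A1 encodes aromatase, the enzyme that makes estrogens. Each model was measured in 8 groups of 3 libraries, 48 libraries in all. Induced glands were taken after 1 week of induction at 12 or 18 months of age, after 6 or 12 months of induction at 24 months, and after 18 months of induction at 30 months. Uninduced glands were taken at 12, 18 and 24 months. Every group carries MMTV-rtTA and a responder, the series has no group given doxycycline without a responder, and it has no uninduced group of 30 months, so the drug and the transgene cannot be told apart. The titles call the 3 replicates of a group biological and give each its own number. Whether each is a separate mouse is not stated, and a p-value here sets a difference only against a spread estimated from such libraries.

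These RNAs are made by RNA polymerase III and act inside ribonucleoprotein particles. 7SL, the product of Rn7s1 and Rn7s2, is the scaffold of the signal recognition particle (SRP), which docks ribosomes that make secreted and membrane proteins at the endoplasmic reticulum, the route that milk proteins take. Rn7sk (7SK) holds the kinase P-TEFb inactive and so restrains transcription elongation by RNA polymerase II, while Rpph1 is the catalytic RNA of RNase P, which trims the 5′ end of tRNA precursors, and Rmrp is its relative in RNase MRP, which cleaves ribosomal RNA precursors.

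The RNAs are short and several share sequence with another annotated gene, which decides what a value of each row can mean, so the sequences of Rn7sk, Rmrp and Rpph1 are printed from the GENCODE M21 transcripts on mm10, with T for U and in lower case; of Rn7sk and Rpph1 the first 300 bases are shown. In Rmrp the capitals mark the 5 bases at the 5′ end and the 5 bases at the 3′ end by which the longer row exceeds the shorter one.
Rn7sk: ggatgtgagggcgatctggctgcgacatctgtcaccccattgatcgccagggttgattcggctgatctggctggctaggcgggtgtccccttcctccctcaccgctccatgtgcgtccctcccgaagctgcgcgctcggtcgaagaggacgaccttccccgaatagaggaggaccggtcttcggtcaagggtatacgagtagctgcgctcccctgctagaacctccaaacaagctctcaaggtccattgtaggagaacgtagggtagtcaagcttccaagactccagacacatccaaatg
Rmrp: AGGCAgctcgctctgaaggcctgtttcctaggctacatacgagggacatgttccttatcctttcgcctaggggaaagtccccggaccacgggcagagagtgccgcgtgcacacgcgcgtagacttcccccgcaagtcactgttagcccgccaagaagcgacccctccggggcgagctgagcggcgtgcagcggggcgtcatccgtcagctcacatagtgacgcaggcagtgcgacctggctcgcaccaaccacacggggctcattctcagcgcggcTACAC
Rpph1: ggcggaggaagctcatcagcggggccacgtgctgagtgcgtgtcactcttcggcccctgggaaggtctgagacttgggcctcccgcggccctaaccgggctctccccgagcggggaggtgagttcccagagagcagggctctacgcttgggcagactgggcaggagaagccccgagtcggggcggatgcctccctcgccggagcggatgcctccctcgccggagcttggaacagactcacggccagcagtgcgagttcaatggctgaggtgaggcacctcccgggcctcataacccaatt

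Rn7s1 (ENSMUSG00000099021.1) lies at chr12:69159295-69159594 on the plus strand, 109 bases from Rps29, and Rn7s2 (ENSMUSG00000099250.1) at chr12:69361182-69361481 on the minus strand. Their 300-base transcripts are identical at 300 of 300 positions, so a read cannot be assigned to either copy, and the 2 values are summed as 7SL below. They also share stretches as long as a read with Rn7s6, Gm26461, Gm47295 and Gm47299, which are not in the sum. After the rescaling described below, these reached at most 3.00, 18.1, 943 and 1873 TPM, in that order. Rn7sk (ENSMUSG00000065037.1, 331 bases) lies at chr9:78175303-78175633 on the minus strand, overlapping no other annotated gene. Of its 257 stretches of 75 bases, the read length, 167 also occur in 4 annotated copies (Gm24146, Gm24447, Gm26035 and Gm26315), none of which went above 28.9 TPM after the rescaling described below. Rpph1 (ENSMUSG00000092837.1, 319 bases) lies at chr14:50807449-50807767 on the minus strand and overlaps Ccnb1ip1 on the same strand by 284 bases, but Ccnb1ip1 had a median of 0.229 TPM after rescaling. The Rmrp ribozyme row (ENSMUSG00000088088.1, 271 bases) lies at chr4:43492788-43493058 on the minus strand, inside the longer noncoding row (ENSMUSG00000115420.1, 281 bases) at chr4:43492783-43493063. The longer row holds 207 stretches of 75 bases and shares 197 of them with the ribozyme row, so only reads that reach the outermost bases can tell these rows apart.

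Values are TPM, which are levels per length scaled to the same total in every library. Read totals cannot be recovered from them, which leaves depth unknown and counting error without an interval. Nuclear ribosomal RNA rows (CT010467.1, AY036118 and Lars2, a gene with a stretch that resembles ribosomal RNA) held 0.0159% to 67.2% of TPM, with more than 10% in 9 libraries. Because that share and the share of the noncoding RNAs dilute every other gene, TPM were rescaled by the median ratio over 9627 nuclear protein-coding genes, and levels below are rescaled TPM unless called deposited. Epithelial markers were present in every library (Krt8 at 20.6 to 123, Krt18 at 33.3 to 166 and Krt14 at 5.49 to 49.8 rescaled TPM), beside adipocytes (Adipoq at 161 to 786) and muscle (Acta1, skeletal actin, at 59.6 to 11052). The summed level of 6 skeletal muscle markers, all 6 of them at 1 rescaled TPM or more in every library, ran from 176.7 to 43627.4. Glands of 24 or 30 months carry titles built differently from the younger ones, so age and any batch split at that boundary cannot be told apart.

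Together the 5 RNAs took 13.2% to 46.8% of deposited TPM in a library, with a median of 38.7%. 7SL held 11.3% to 40.2% (median 31.4%), Rn7sk 1.58% to 6.92% (median 5.11%), both Rmrp rows 0.217% to 1.06% (median 0.653%) and Rpph1 0.134% to 1.36% (median 0.586%). The low shares went with ribosomal RNA: in the 9 libraries with more than 10% of it the 5 RNAs took 13.2% to 34.0%, against 28.4% to 46.8% in the other 39. After rescaling, Rn7s1 and Rn7s2 ranked 1 and 2 by mean level among all genes, Rn7sk 6, Rpph1 11, the Rmrp ribozyme row 13 and its longer row 33.

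**Figure D1:**
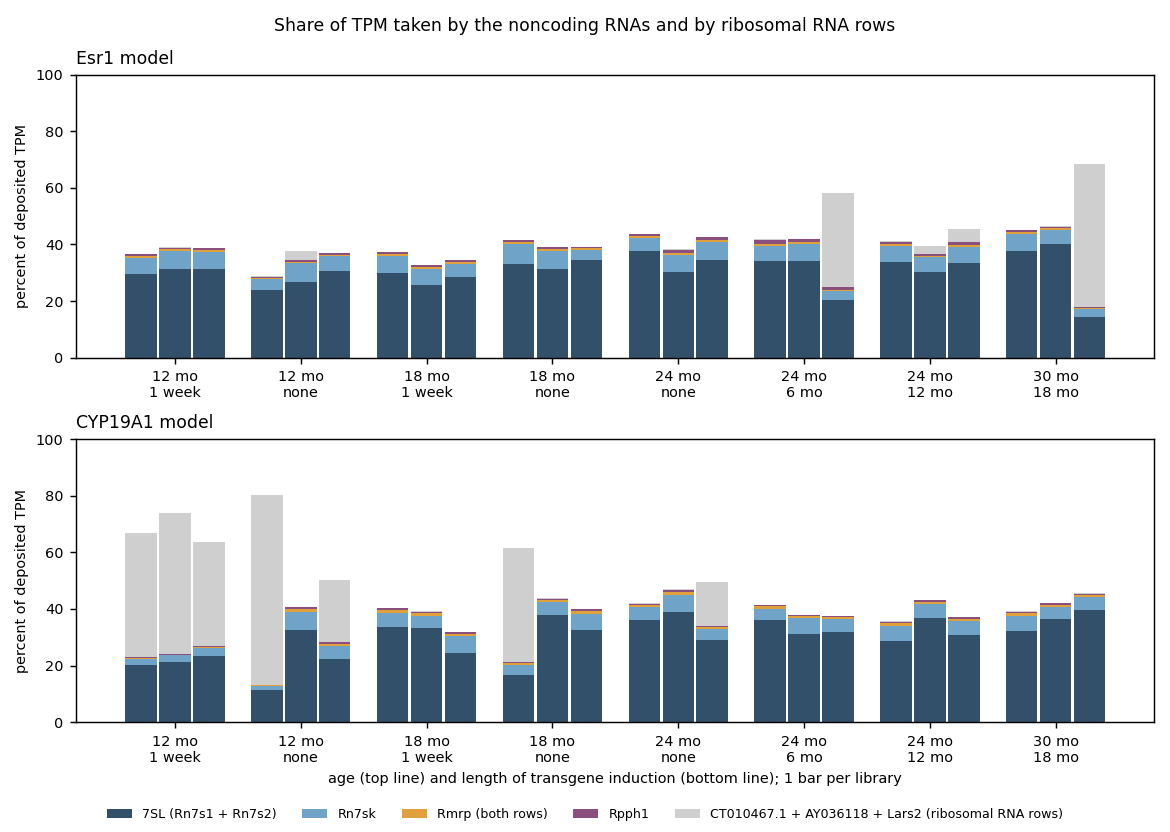
Share of deposited TPM (percent) in each of the 48 libraries, 1 bar per library, stacked by RNA with ribosomal RNA rows in grey on top; upper panel Esr1 model, lower panel CYP19A1 model, groups by age and length of induction. 7SL fills most of every coloured bar (11.3% to 40.2%), and the coloured bars are short where the grey part is tall.

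7SL ran from 196469 to 469242 rescaled TPM, a 2.39-fold range, with a median of 290204. In the Esr1 model the group means were 232479 ± 9039 after 1 week of induction at 12 months and 250428 ± 51912 uninduced at 12 months, 231689 ± 16201 after 1 week at 18 months and 317626 ± 102018 uninduced at 18 months (SD, n = 3 throughout). At 24 months they were 341385 ± 90691 uninduced, 282729 ± 23581 after 6 months of induction and 294468 ± 19819 after 12 months, and at 30 months 378128 ± 110714. Spread within groups was wide: the uninduced Esr1 libraries of 24 months held 432537, 251161 and 340457, and those of 30 months 410233, 469242 and 254910. In the CYP19A1 model the means were 361596 ± 65452 after 1 week at 12 months and 260154 ± 78239 uninduced, 296205 ± 81245 after 1 week at 18 months and 287963 ± 69623 uninduced. At 24 months they were 328171 ± 21848 uninduced, 322382 ± 97185 after 6 months and 276091 ± 73751 after 12 months, and at 30 months 370980 ± 38189. With the 16 groups in order of their means, 0 of the 15 neighbouring pairs had libraries that did not overlap. The same count over all genes was not determined, here or for the RNAs below. The copies carried the same value within 0.01 TPM in 27 libraries, 7 of the 24 older (24 and 30 months) and 20 of the 24 younger (12 and 18 months), and differed by at most 2.39%.

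Rn7sk, the brake on P-TEFb, had the narrowest range, 1.81-fold, from 35839.8 to 64959.9 rescaled TPM with a median of 47865.6. Its SD over the 48 libraries was 0.16 on the log2 scale, the smallest among the 54 genes with a mean above 1000. Esr1 means were 46022 ± 1310 after 1 week at 12 months and 47184 ± 4696 uninduced, 46872 ± 3493 after 1 week at 18 months and 51807 ± 2465 uninduced, then 53943 ± 7163 uninduced, 46452 ± 6182 after 6 months and 49740.1 ± 2225 after 12 months at 24 months, and 57139 ± 7433 at 30 months. CYP19A1 means were 42479 ± 6676 after 1 week at 12 months and 45504 ± 3992 uninduced, 49300 ± 4966 after 1 week at 18 months and 46154 ± 3365 uninduced, then 46165 ± 3836 uninduced, 44643 ± 3009 after 6 months and 43471 ± 5469 after 12 months at 24 months, and 47241 ± 4118 at 30 months. No neighbouring pair of groups in this order was free of overlap, 0 of 15.

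Rmrp, with its rows summed, ran from 3235 to 10982 rescaled TPM, a 3.40-fold range, with a median of 6214. Esr1 means were 4212 ± 550 after 1 week at 12 months and 3695 ± 621 uninduced, 5404 ± 179 after 1 week at 18 months and 5342 ± 292 uninduced, then 6919 ± 1153 uninduced, 6243 ± 918 after 6 months and 6460 ± 1110 after 12 months at 24 months, and 8027 ± 2385 at 30 months. CYP19A1 means were 5609 ± 591 after 1 week at 12 months and 6540 ± 170 uninduced, 8778 ± 2916 after 1 week at 18 months and 7347 ± 276 uninduced, then 6998 ± 1718 uninduced, 6282 ± 2510 after 6 months and 7053 ± 1353 after 12 months at 24 months, and 7932 ± 2524 at 30 months. The 12 older Esr1 libraries held 5246 to 9768 and the 12 younger ones 3235 to 5597, while older CYP19A1 libraries held 4348 to 10846 and younger ones 4973 to 10982. Of the 15 neighbouring pairs of groups, 1 did not overlap.

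Rpph1, the RNase P RNA, ran from 4047 to 11226 rescaled TPM, a 2.77-fold range, with a median of 5512, and its high values lay in the older Esr1 glands. Uninduced Esr1 glands of 24 months held 8280, 10294 and 10308, those induced for 6 months 11226, 9265 and 10003, those induced for 12 months 7784, 5486 and 8749, and those of 30 months 8983, 6654 and 6299. Of these 12 libraries, 10 were above every one of the other 36, whose highest value was 6613. This split of the libraries was not tested, and the share of all genes with such a split was not determined. Younger Esr1 glands held 5111, 4773 and 4521 after 1 week of induction at 12 months and 4047, 4322 and 5335 uninduced, and 5061, 4071 and 4933 after 1 week at 18 months and 5490.5, 6179 and 6114 uninduced. CYP19A1 means were 5142 ± 476 after 1 week at 12 months and 5241 ± 1046 uninduced, 5696 ± 195 after 1 week at 18 months and 5548 ± 260 uninduced, then 5610 ± 888 uninduced, 4932 ± 507 after 6 months and 4894 ± 873 after 12 months at 24 months, and 5721 ± 780 at 30 months. The 24 CYP19A1 libraries lay between 4122 and 6613 at all ages. In the order of group means, 1 of 15 neighbouring pairs did not overlap.

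**Figure D2:**
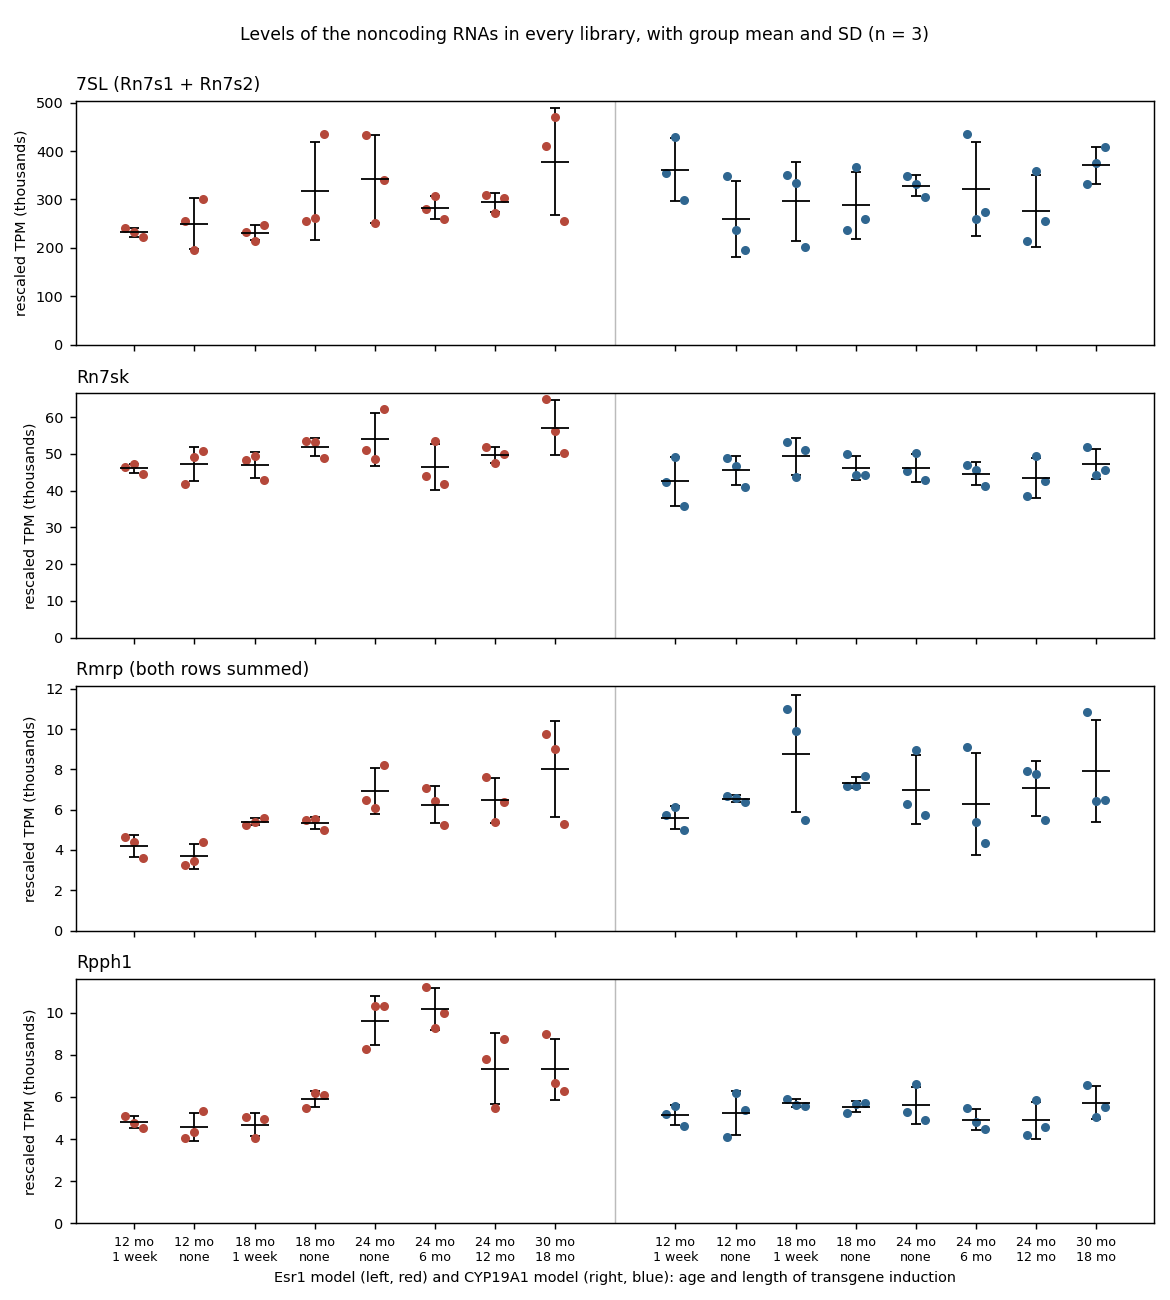
Rescaled TPM (in units of 1000, linear axes from 0) of 7SL, Rn7sk, summed Rmrp and Rpph1 in every library, with Esr1 groups on the left in red and CYP19A1 groups on the right in blue; points are libraries, horizontal lines group means and bars SD (n = 3). Rpph1 reaches 5486 to 11226 in the Esr1 groups of 24 and 30 months, and 6613 is its highest value anywhere else.

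The division of Rmrp between its nested rows differed with age, which bears on every single-row value. The longer row stood at 0.0840 to 0.243 of the ribozyme row in older Esr1 libraries, against 0.384 to 2.22 in younger ones. In the CYP19A1 model the ratio was 0.0780 to 0.217 in older libraries, against 0.151 to 0.654 in younger ones. All 24 older libraries were under 0.3 and 23 of the 24 younger ones above it, the exception being replicate 1 of the uninduced CYP19A1 glands of 12 months, which had 67.2% ribosomal RNA. The ribozyme row held 4585 to 8864 in older Esr1 libraries and 1169 to 3797 in younger ones, and the longer row 411.2 to 1202 in older and 1389 to 3212 in younger ones. In the Esr1 model the older libraries were thus higher in the ribozyme row and lower in the longer one, with no overlap in either. The share of all genes that separate these older and younger libraries was not determined. In the CYP19A1 model the ribozyme row overlapped, at 3733 to 9759.6 in older and 3429 to 6731 in younger libraries, and the longer row was 614.8 to 1122 in older and 879.4 to 4251 in younger ones. The split falls at the boundary of the library titles.

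**Figure D3:**
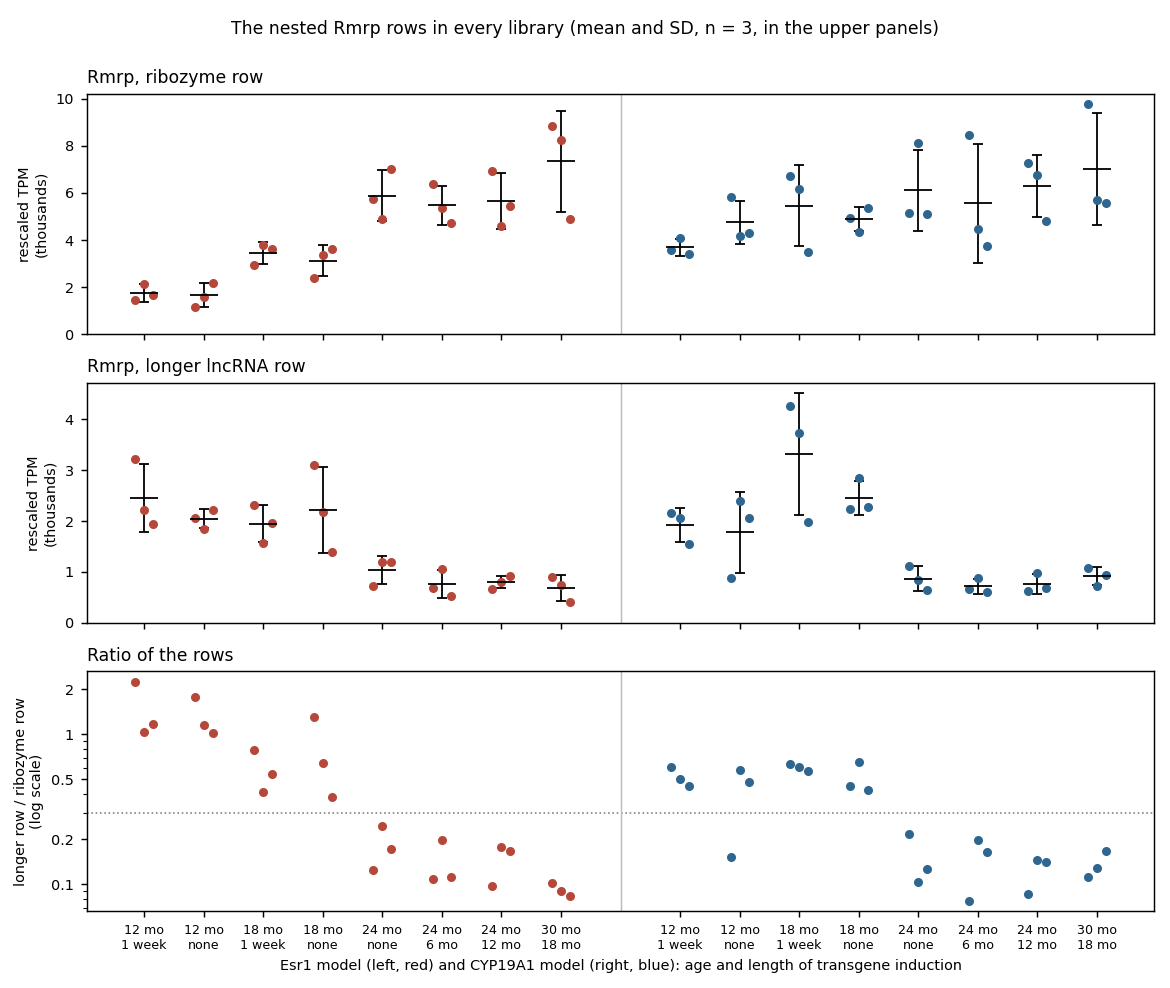
The Rmrp ribozyme row and the longer row (rescaled TPM, in units of 1000) and their ratio (log axis) in every library, Esr1 in red on the left and CYP19A1 in blue on the right; lines and bars are means and SD (n = 3), and the dotted line marks a ratio of 0.3. All 24 libraries of 24 and 30 months lie under that line, and 23 of the 24 younger ones above it.

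No change of these RNAs with transgene induction passed the test. Each induced group was set against uninduced glands of equal age from that model by limma on log2(rescaled TPM + 1), fitted over all genes and called at a Benjamini-Hochberg adjusted p under 0.05. None of the 48 tests of the 6 rows in 8 comparisons passed, and 0 had an unadjusted p under 0.05; over all genes the calls were 0%, 0%, 0% and 0.00507% for Esr1 induction of 1 week at 12 months, 1 week at 18 months, 6 months and 12 months, and 0%, 0.00507%, 0% and 0.0152% for CYP19A1 induction in that order. The log2 changes ran from -0.41 to 0.50 for 7SL, from -0.22 to 0.09 for Rn7sk, from -0.23 to 0.19 for summed Rmrp and from -0.41 to 0.08 for Rpph1. Over the 8 comparisons the 95% intervals all lay within -0.99 to 0.87 for Rn7sk and within -2.38 to 2.47 for 7SL. Without limma's intensity trend those of 7SL lay within -0.92 to 1.01. The lower and upper bounds come from different comparisons, so each single interval is narrower.

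Libraries did not overlap in 3 of the 32 comparisons of 7SL, Rn7sk, summed Rmrp and Rpph1, where 14.8%, 5.96%, 5.97% and 4.88% of all genes did not in the 4 Esr1 comparisons and 5.92%, 9.09%, 7.03% and 7.28% in the 4 CYP19A1 comparisons, in the order above. After 1 week of Esr1 induction at 18 months, 7SL held 232313, 215185 and 247568, against 254976, 262558 and 435345 in uninduced glands, and Rpph1 5061, 4071 and 4933, against 5490.5, 6179 and 6114 (background 5.96%). Summed Rmrp held 5713, 6142 and 4973 after 1 week of CYP19A1 induction at 12 months, against 6699.8, 6559 and 6362 in uninduced glands (background 5.92%). Ribosomal RNA rows took 43.7%, 49.8% and 36.7% of TPM in these induced libraries, against 67.2%, 0.122% and 22.2% in the uninduced ones. Without the libraries over 10% this comparison has no value. The part of ribosomal RNA in it was not tested. None of these 3 differences passed the test. The fitted spread depends on the level: without limma's intensity trend the SE of 7SL was 0.25, against 0.97 with it, and that of Rpph1 0.16, against 0.22. Without the trend none of the 48 tests passed either, and 2 of the 32 intervals left out 0, both for Rpph1 in the Esr1 model, from -0.67 to -0.01 after 1 week at 18 months and from -0.74 to -0.08 after 12 months at 24 months.

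Age changes passed in the Esr1 model. In uninduced Esr1 glands Rpph1 averaged 9627 ± 1167 at 24 months and 4568 ± 678 at 12 months (SD, n = 3), with libraries at 8280, 10294 and 10308 against 4047, 4322 and 5335. Every 24-month library was above every 12-month one. In 16.4% of all genes the libraries of these groups did not overlap, in either direction. Rpph1 rose by 1.08 on the log2 scale (SE 0.22, limma adjusted p = 0.00663), 2.11-fold, where 1.85% of all genes passed in either direction and 0.927% upwards. The call was lost on deposited TPM (0.98, adjusted p = 0.432), with scaling to the protein-coding total (1.01, adjusted p = 0.0713), with no filter on low values (adjusted p = 0.0628) and when only these 2 groups were fitted (adjusted p = 0.676), and it held without the intensity trend (adjusted p = 0.00014, where 1.79% of genes passed).

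The Rmrp ribozyme row also rose in that comparison, by 1.86 on the log2 scale (SE 0.32, limma adjusted p = 0.000835; 0.344 when only these groups were fitted). It held 5739, 4882 and 7030.2 at 24 months and 1169, 1604 and 2181 at 12 months. The longer row went the other way without passing (-1.02, adjusted p = 0.126). With the rows summed, Rmrp averaged 6919 ± 1153 at 24 months and 3695 ± 621 at 12 months (SD, n = 3). That is a log2 change of 0.90 with a 95% interval of 0.31 to 1.5, and the groups did not overlap, but it did not pass (limma adjusted p = 0.103). Without the intensity trend the summed change passed (adjusted p = 0.0457). Rn7sk (0.19, interval -0.59 to 0.97) and 7SL (0.43, interval -1.53 to 2.40) did not pass.

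The 24-month Esr1 glands were also set against those of 18 months. The log2 change of Rpph1 was 0.69 (SE 0.22, limma adjusted p = 0.0904), with 8280, 10294 and 10308 at 24 months against 5490.5, 6179 and 6114 at 18 months; without the intensity trend the adjusted p was 0.0186, where 2.09% of genes passed. The libraries did not overlap for Rpph1, summed Rmrp and each Rmrp row, as in 14.1% of genes. None of the 6 rows passed there, where 2.19% of genes did, although 3 had an unadjusted p under 0.05 (Rpph1 and both Rmrp rows). At 18 against 12 months the log2 change of Rpph1 was 0.38 (adjusted p = 0.853) and 0% of genes passed, although the libraries of Rpph1, summed Rmrp and the ribozyme row did not overlap, as in 9.99% of genes. The ribozyme row had the one unadjusted p under 0.05 there (log2 change 0.94). For summed Rmrp the same steps were 0.36 (24 against 18 months, adjusted p = 0.548) and 0.54 (18 against 12 months, adjusted p = 0.837).

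In the CYP19A1 model none of these RNAs passed between uninduced ages in the fit with the intensity trend, where 0.334% of genes passed at 24 against 12 months, 0.122% at 24 against 18 months and 0% at 18 against 12 months. At 24 against 12 months Rpph1 had a log2 change of 0.11 (interval -0.35 to 0.56, adjusted p = 0.836), with 5610.3 ± 887.7 rescaled TPM at 24 months and 5241 ± 1046 at 12 months (SD, n = 3). The log2 change was 0.07 for summed Rmrp (interval -0.53 to 0.67), 0.02 for Rn7sk and 0.37 for 7SL (interval -1.59 to 2.34). The longer Rmrp row alone had an unadjusted p under 0.05, at 24 against 12 months (-0.94, limma adjusted p = 0.142) and at 24 against 18 months (-1.52, adjusted p = 0.0673). It held 1122, 845.5 and 647.4 at 24 months, against 2243, 2844 and 2284 at 18 months and 879.4, 2396 and 2067 at 12 months. The 24- and 18-month libraries did not overlap, as in 17% of genes, and without the intensity trend this fall passed (adjusted p = 0.049996, where 0.152% of genes passed). At 24 against 12 months it passed without replicate 1 of the 12-month glands, the library with 67.2% ribosomal RNA (-1.39, adjusted p = 0.0216). Summed Rmrp did not overlap at 18 against 12 months (7180, 7195 and 7666 against 6699.8, 6559 and 6362; log2 change 0.17, adjusted p = 0.917), as in 8.14% of genes.

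The age effects of the models were compared directly. The Esr1 change minus the CYP19A1 change from 12 to 24 months was 0.97 for Rpph1 (interval 0.33 to 1.61, unadjusted p = 0.00396), 0.83 for summed Rmrp (interval -0.01 to 1.68) and 1.52 for the ribozyme row. None passed limma's adjustment over all genes (adjusted p = 0.635, 0.947 and 0.439; for Rpph1 0.115 without the intensity trend), where 0.0962% of genes passed and 0.101% without the trend. Over all 8 differences between models 0 of 48 tests of the rows passed and 3 had an unadjusted p under 0.05: Rpph1 and the ribozyme row at 24 against 12 months, and Rpph1 at 24 against 18 months. At 24 against 18 months 0.0861% of genes passed, and in the other 6 differences 0% or 0.00507%. The age change of Rpph1 thus passed in the Esr1 model, and its difference from that of the CYP19A1 model did not.

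Averaged over both models, 24 against 12 months uninduced, 3 rows passed where 9.29% of genes did, 4.95% upwards and 4.35% downwards. Rpph1 rose by 0.59 (SE 0.16, limma adjusted p = 0.0179), with 7619 ± 2388 at 24 months and 4905 ± 871 at 12 months (SD, n = 6). That SD takes in the gap between the models, and the log2 change was 1.08 in the Esr1 model and 0.11 in the CYP19A1 model. This call was lost without replicate 2 of the uninduced Esr1 glands of 24 months (0.57, adjusted p = 0.0528) and without the libraries over 10% ribosomal RNA (0.51, adjusted p = 0.131), as well as on deposited TPM (0.75, adjusted p = 0.137), with the protein-coding total (adjusted p = 0.0572), with no filter (adjusted p = 0.0840) and with these groups fitted alone (adjusted p = 0.341). The ribozyme row rose by 1.10 (adjusted p = 0.00313) and the longer row fell by 0.98 (adjusted p = 0.0138), but the log2 change of summed Rmrp was 0.49 (interval 0.06 to 0.91, adjusted p = 0.124). The log2 change of 7SL was 0.40 with an interval of -0.99 to 1.79 (0.04 to 0.77 without the intensity trend, adjusted p = 0.136), and that of Rn7sk 0.11 with an interval of -0.44 to 0.66.

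Among glands induced for long, 30 months was compared with 24 months (18 against 12 months of induction, so age and length of induction cannot be told apart). None of 12 tests passed or had an unadjusted p under 0.05, where 0.152% of genes passed in the Esr1 model and 0% in the CYP19A1 model. The log2 change of 7SL was 0.32 in the Esr1 model and 0.45 in the CYP19A1 model, and that of Rpph1 0.00 in the Esr1 model and 0.23 in the CYP19A1 model. Rpph1 in Esr1 glands averaged 7312 ± 1458 at 30 months and 7339.5 ± 1677 at 24 months after 12 months of induction (SD, n = 3 each).

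**Figure D4:**
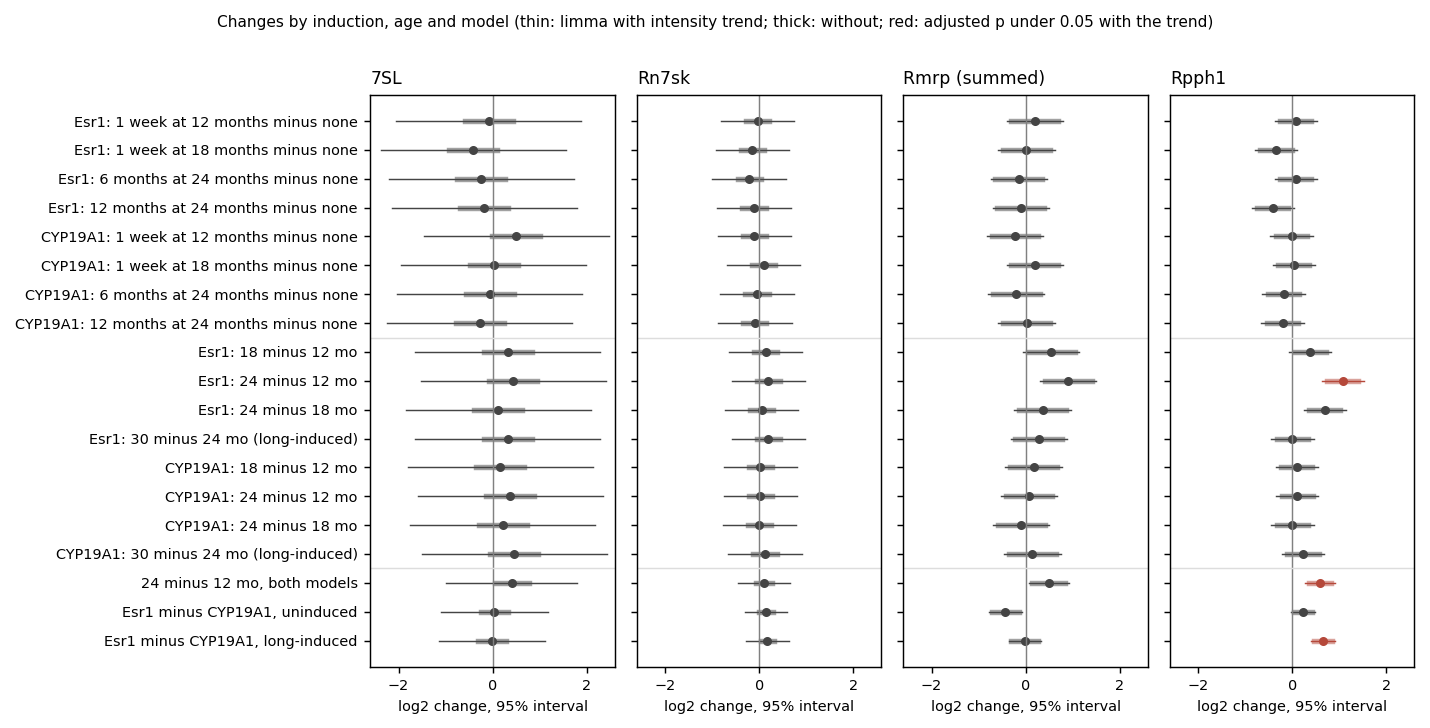
Log2 changes of 7SL, Rn7sk, summed Rmrp and Rpph1 in 19 comparisons (induction at the top, age in the middle, both-model age and model comparisons at the bottom); thin lines are 95% intervals from limma with an intensity trend, thick lines those without it, and red marks an adjusted p under 0.05 with the trend. Only Rpph1 has red points, at 24 against 12 months in the Esr1 model (1.08) and averaged over the models (0.59), and for Esr1 against CYP19A1 after long induction (0.65).

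The models themselves differed for Rpph1 after long induction. No library is shared by the models, so the responder and any other difference between their mice or libraries cannot be told apart. In glands induced for 6, 12 or 18 months Rpph1 averaged 8272 ± 1869 in the Esr1 model and 5183 ± 755 in the CYP19A1 model (SD, n = 9 each), a log2 difference of 0.65 (SE 0.13, limma adjusted p = 0.00066), where 9.86% of genes passed, 5.39% upwards. Esr1 libraries held 5486 to 11226 and CYP19A1 libraries 4217 to 6577. The call was lost on deposited TPM (0.49, adjusted p = 0.254). In uninduced glands, averaged over 12, 18 and 24 months, the log2 difference of Rpph1 was 0.23 (interval -0.03 to 0.49, adjusted p = 0.224). By age, the uninduced means were 4568 (Esr1) and 5241 (CYP19A1) at 12 months and 5928 (Esr1) and 5548 (CYP19A1) at 18 months. At 24 months they were 9627 (Esr1) and 5610 (CYP19A1), with libraries at 8280 to 10308 and at 4924 to 6613. Every long-induced gland was of 24 months or older, so the long-induced and uninduced comparisons also differ in age. A model difference at 24 months alone was not tested.

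In uninduced glands the Rmrp ribozyme row was lower in the Esr1 model, by a log2 difference of -0.75 (SE 0.18, limma adjusted p = 0.00425), where 17% of genes passed, 9.31% downwards. It averaged 3553 ± 1982 in the Esr1 model and 5258 ± 1202 in the CYP19A1 model (SD over all ages, n = 9 each). The gap was widest at 12 months, with means of 1651 in the Esr1 model and 4759 in the CYP19A1 model, against 3123 (Esr1) and 4889.6 (CYP19A1) at 18 months and 5884 (Esr1) and 6126 (CYP19A1) at 24 months. This call was lost on deposited TPM (-0.57, adjusted p = 0.172). For summed Rmrp the log2 difference was -0.43 (interval -0.78 to -0.09, adjusted p = 0.0761; 0.0323 without the intensity trend, where 16.9% of genes passed). After long induction the log2 difference was -0.02 for summed Rmrp, -0.01 for 7SL and 0.17 for Rn7sk (interval -0.28 to 0.62), none past the test.

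Markers of other cell types are given beside these changes. In uninduced Esr1 glands the 6 summed skeletal muscle markers held 6418 to 22267 rescaled TPM at 24 months and 1219 to 13648 at 12 months, and the 5 milk genes 36.3 to 22564 at 24 months and 3488 to 6721 at 12 months. The 4 B cell markers held 2.64 to 53.8 at 24 months and 1.52 to 3.53 at 12 months. In uninduced CYP19A1 glands the muscle markers held 11829 to 22672 at 24 months, 2237 to 16685 at 18 months and 328.3 to 11531 at 12 months. B cell markers held 8.34 to 25.4 at 24 months and 1.82 to 2.86 at 12 months, and milk genes 116.0 to 302.1 at 24 months and 412.8 to 3408 at 12 months. Between the models in uninduced glands the milk genes held 3488 to 6721 (Esr1) and 412.8 to 3408 (CYP19A1) at 12 months. At 18 months they held 2333 to 18975 in the Esr1 model and 371.2 to 1093 in the CYP19A1 model. The models overlapped at 24 months. In long-induced glands the milk genes held 189.6 to 15009 in the Esr1 model and 94.995 to 1735 in the CYP19A1 model. Their part in the changes of Rpph1 and Rmrp was not tested, and in bulk tissue fewer cells of a type and less RNA per cell cannot be told apart. Across the 48 libraries the muscle score, the mean log2 level of the 6 markers, went with 7SL (r = 0.53, rho = 0.55, permutation adjusted p = 0.00025 over 5 relations; r = 0.60 without the 2 farthest libraries). For 7SL that r was 0.51 after centring on group means, 0.53 within the 12- and 18-month libraries and 0.29 within the 24- and 30-month ones (adjusted p = 0.35). With 7SL as deposited TPM, r did not pass (0.19, permutation adjusted p = 0.382), and rho was 0.37 (adjusted p = 0.0178). Summed Rmrp passed over all libraries by r (0.36, permutation adjusted p = 0.0201, and r = 0.30 without the 2 farthest) but not by rho (0.31, permutation adjusted p = 0.0514). Its r was 0.08 after centring on group means, 0.27 within the younger (adjusted p = 0.332) and 0.07 within the older libraries (adjusted p = 0.73). As deposited TPM, summed Rmrp had r = 0.07 (permutation adjusted p = 0.783). The ratio of the longer Rmrp row to the ribozyme row had the largest r of the 5 relations (r = -0.56, rho = -0.63, permutation adjusted p = 0.0001; r = -0.57 without the 2 farthest). That ratio separates the ages, and within them r was -0.19 in the younger (adjusted p = 0.404) and -0.38 in the older libraries (adjusted p = 0.324), and -0.23 after centring. With Rpph1 the score had r = 0.27 (rho = 0.24, permutation adjusted p = 0.0826), and with Rn7sk r = 0.19 (rho = -0.03, permutation adjusted p = 0.186).

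Genes that work with these RNAs were taken from 7 lists of protein partners and other RNAs. The age comparisons and the uninduced model comparison share libraries. In the Esr1 comparison of 24 with 12 months, 0 of 10 SRP proteins, 0 of 7 proteins of the 7SK particle and P-TEFb, and 0 of 29 RNA polymerase III subunits and factors passed, where 1.85% of all genes did. Of 10 tested proteins of RNase P and MRP, 1 rose: Pop4, a subunit that both enzymes share, averaged 7.22 ± 2.02 at 24 months and 3.90 ± 0.79 at 12 months (SD, n = 3; log2 change 0.73, limma adjusted p = 0.0194). The list medians were 0.12 for SRP, -0.14 for the 7SK particle, -0.02 for RNase P and MRP and -0.00 for RNA polymerase III, beside -0.00 over all genes tested. None of 19 rows of spliceosomal and telomerase RNAs passed (median 1.56), nor any of 4 nuclear-retained long RNAs (median 0.12). Of 6 other small RNAs of RNA polymerase III, 1 rose: the vault RNA Vaultrc5, with 99.1 ± 44.6 at 24 months and 32.7 ± 20.1 at 12 months (1.64, adjusted p = 0.0476; list median 0.57).

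Averaged over both models, 24 against 12 months, 4.95% of all genes rose and 4.35% fell. Pop4 (0.40, adjusted p = 0.0371) and the RNase P and MRP protein Rpp25l (0.47, adjusted p = 0.00499) rose, 2 of 10 in that list. Of the 7SK particle 2 of 7 fell (median -0.08): Larp7, which binds the 3′ end of 7SK (-0.33, adjusted p = 0.0395), and cyclin T1, Ccnt1, of P-TEFb (-0.31, adjusted p = 0.0451). Among SRP proteins 1 of 10 fell (median 0.06), Srp19 (-0.45, adjusted p = 0.0478). Of the 29 RNA polymerase III factors 1 rose (median 0.02), the repressor Maf1 (0.26, adjusted p = 0.0204), and Vaultrc5 was 1 of 6 other small RNAs to rise (1.11, adjusted p = 0.0265; median 0.01, beside -0.00 over all genes). In a list of spliceosomal and telomerase RNAs 4 of 19 rows rose (list median 0.55), and all 4 were copies of U3, a small nucleolar RNA, with identical values (Rnu3b1 to Rnu3b4, 165.9 ± 108.2 at 24 months and 10.9 ± 19.2 at 12 months, SD, n = 6, log2 change 5.40, adjusted p = 0.00539). None of 4 nuclear-retained long RNAs passed (Malat1 0.16, Neat1 0.30; median 0.23).

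Between models in uninduced glands 6 of 10 SRP proteins were higher in the Esr1 model (list median 0.28, beside -0.01 over all genes). Of all genes 7.73% were higher and 9.31% lower. The log2 difference of 7SL itself was 0.04 (interval -1.10 to 1.17). Srprb, a subunit of the SRP receptor, held 7.59 ± 0.74 in the Esr1 model and 4.70 ± 0.31 in the CYP19A1 model (SD, n = 9 each; 0.59, limma adjusted p = 8.78e-10). Srp19 (0.44, adjusted p = 0.00903), Srp9, which binds the Alu domain of 7SL (0.43, adjusted p = 0.000711), and Srp54a, which binds signal peptides (0.31, adjusted p = 0.0415), were higher too. Of the 7SK particle 1 of 7 was lower (median -0.13), the kinase Cdk9 (-0.21, adjusted p = 0.0211), and of RNase P and MRP 1 of 10 was higher (median 0.15), Rpp14 (0.27, adjusted p = 0.0403). Of 29 RNA polymerase III factors 2 were higher and 1 lower (median 0.01), the higher ones being La, Ssb, which binds the 3′ ends of these RNAs (0.37, adjusted p = 0.000744), and Polr3k (0.25, adjusted p = 0.0325). The rodent RNA Bc1 was the 1 of 6 other small RNAs that was higher (0.85, adjusted p = 0.0189; list median -0.46). None of 19 spliceosomal and telomerase rows passed (median -0.43), and of 4 nuclear-retained long RNAs Meg3 was lower (-0.87, adjusted p = 0.0181; median -0.19).

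After long induction 5.39% of all genes were higher and 4.47% lower in the Esr1 model. Srprb (0.60, limma adjusted p = 5.37e-10) and Srp9 (0.28, adjusted p = 0.0314) were again higher in the Esr1 model, 2 of 10 SRP proteins (median 0.12). Pop4 was higher, 6.03 ± 1.05 in the Esr1 model and 4.27 ± 0.59 in the CYP19A1 model (SD, n = 9 each; 0.41, adjusted p = 0.00700), 1 of 10 RNase P and MRP proteins (median -0.02). Of 29 RNA polymerase III factors 1 was higher and 2 were lower (median 0.02), among them Snapc1 (0.33, adjusted p = 0.0182) and Brf2 (-0.34, adjusted p = 0.00812). None of the 7 genes of the 7SK particle passed (median -0.06; Cdk9 -0.06 and Ccnt2 -0.06), and Bc1 was the 1 of 6 other small RNAs that was higher (1.11, adjusted p = 0.00349; median -0.34). None of 19 spliceosomal and telomerase rows passed (median 0.16), and Meg3 was the 1 of 4 nuclear-retained long RNAs that was lower (-0.79, adjusted p = 0.0455; median -0.18).

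The RNAs varied together in part. With the identical 7SL copies summed and the longer Rmrp row left aside, 4 of 6 relations over the 48 libraries had a Pearson correlation past a permutation p adjusted over the 6, and the values share the rescaling factor of their library. 7SL and the Rmrp ribozyme row had r = 0.53 (rho = 0.56, permutation adjusted p = 0.00096), 0.54 without the 2 libraries farthest from the median, 0.52 centred on group means, 0.41 within the 12- and 18-month libraries (adjusted p = 0.149) and 0.53 within the 24- and 30-month ones (adjusted p = 0.0141). 7SL and Rn7sk had r = 0.31 (permutation adjusted p = 0.0493), 0.26 without the 2 farthest, 0.00 within the younger (adjusted p = 0.994) and 0.53 within the older libraries (adjusted p = 0.0141). Their rho of 0.25 did not pass (permutation adjusted p = 0.0813). 7SL and Rpph1 did not pass by r (0.29, permutation adjusted p = 0.0507) but did by rho (0.41, permutation adjusted p = 0.00573). That rho was 0.42 within the younger (adjusted p = 0.126) and 0.16 within the older libraries (adjusted p = 0.45). Rn7sk and Rpph1 had r = 0.48 (rho = 0.53, permutation adjusted p = 0.00174), 0.41 without the 2 farthest, 0.28 within the younger (adjusted p = 0.275) and 0.55 within the older libraries (adjusted p = 0.0141). The ribozyme row and Rpph1 had r = 0.47 (rho = 0.50, permutation adjusted p = 0.00192), 0.43 without the 2 farthest, 0.45 within the younger (adjusted p = 0.149) and 0.19 within the older libraries (adjusted p = 0.434). Within the 12- and 18-month libraries 0 of 6 relations passed, and within the 24- and 30-month libraries 4 of 6, so no relation passed in both sets of ages. With the Rmrp rows summed and the 7SL copies taken singly (10 pairs), Rmrp and Rpph1 had r = 0.41 (rho = 0.51, permutation adjusted p = 0.00724), 0.34 without the 2 farthest, 0.56 within the younger (adjusted p = 0.0246) and 0.22 within the older libraries (adjusted p = 0.365).

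The genes most like each RNA, by Pearson r of log2(rescaled TPM + 1) over the 48 libraries, differed from RNA to RNA. For Rn7s1 they were Ptpn21 (0.73), Calcoco1 (0.72), Casz1 (0.72), Acvr2b (0.71) and Best3 (0.71), and for Rn7s2 the first 4 of these and Mapre3 (0.70). For Rn7sk they were Pfdn5 (0.66), a prefoldin subunit, and the ribosomal protein genes Rplp2 (0.66), Rps21 (0.65), Rpl36 (0.65) and Rps27 (0.64). The Rmrp ribozyme row was nearest to other small RNAs, Scarna6 (0.85, and 0.73 centred on group means), Snora81 (0.79, 0.75 centred) and the 7SK copy Gm24146 (0.75, 0.62 centred), followed by Pla2g12a (0.73, 0.09 centred) and Rpl34 (0.73, 0.03 centred). The longer row was nearest to Ccni (0.82, 0.60 centred), Gm26377 (0.81, 0.36 centred), Dzip3 (0.80, 0.53 centred), Zmym4 (0.80, 0.54 centred) and Btbd7 (0.79, 0.51 centred). Rpph1 was nearest to genes of low level: Gm3636 (0.83, median 0.0966 rescaled TPM), Cd300ld3 (0.83, median 0.107), Cd300ld5 (0.82, median 0), Gm26782 (0.80, median 3.01) and Gm32687 (0.79, median 0). Centred on group means, the r of these 5 was 0.13 to 0.53.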

How the data were processed

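RNA from 48 mammary gland libraries underwent ribosomal RNA depletion and stranded, random-primed library preparation, with single reads of 75 bp, per the labels' protocols. The deposited values are TPM by the authors, and the submitters' processing notes name RSEM (1.3.1) and STAR (2.7.9a) on mm10, after FastQC and Trim Galore. The annotation release and fragment length setting are not given in the sources used here; TPM of genes about as short as a fragment depend on that setting. All 6 identifiers matched GENCODE M21 with version.

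TPM were rescaled by the median of ratios over 9627 nuclear protein-coding genes with at least 1 TPM in all libraries. Genes with at least 1 rescaled TPM in at least 3 libraries (19743) were tested as log2(rescaled TPM + 1) with limma 3.58.1 in R 4.3.3, 1 mean per group, an intensity trend, two-sided, adjusted by Benjamini-Hochberg within each of 27 comparisons; log2 changes are on that scale. The test was also tried on simulated data. Correlations used 100000 permutations (scipy 1.17.1). Alternatives were TPM as deposited, scaling to the protein-coding total, other pseudocounts and filters, no intensity trend, compared groups only, a replicate block, leaving out each library or those over 10% ribosomal RNA; summing the Rmrp rows, summing the 7SL copies in correlations and the muscle relations within ages were added after seeing the data. Named genes were the 5 members; from 7 lists of related genes, the largest changes that passed, up to 4 a list, wherever a member passed, or else the 2 with the highest mean; and the 5 genes most like each row. The members and lists were chosen with earlier results of these data known. Some items of these lists are not reported here.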

Additional observations from a re-analysis of the deposited data

How the results depend on the processing

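Among results that passed, 1 alternative turned a direction. Summing the Rmrp rows left 1 row called among uninduced ages, 1 between models and 1 in the age comparison averaged over models, against 2, 2 and 3; the log2 changes of Rmrp became 0.90 (Esr1, 24 against 12 months), -0.43 (models, uninduced) and 0.49 (averaged), this last also turning the sign of the longer row, by construction. On deposited TPM the counts were 1, 0 and 1, with Rpph1 at 0.98 (Esr1 age), 0.49 (models, long induction) and 0.75 (averaged), Rmrp at -0.57 between models and the longer row at -0.83. With the protein-coding total they were 1, 2 and 1 (Rpph1 1.01 and 0.61, longer row -0.96). With no filter 1 row was called among uninduced ages, and Rpph1 missed at 1.08 and 0.59. Fitting compared groups only called 0 among uninduced ages and 0 in the average, at unchanged log2 changes (Rmrp 1.86 and 1.10, Rpph1 1.08 and 0.59, longer row -0.98), with fewer libraries behind the spread. Without the intensity trend 4 were called among uninduced ages. Without libraries over 10% ribosomal RNA the averaged Rpph1 change was 0.51. Leaving out 1 library gave 2 to 3 calls among uninduced ages and in the average, Rmrp 1.64 to 2.09 and Rpph1 1.00 to 1.20 (Esr1 age), Rmrp -0.83 to -0.68 and Rpph1 0.60 to 0.72 (models), and 0.99 to 1.22, 0.51 to 0.66 and -1.20 to -0.84 (averaged Rmrp, Rpph1, longer row); 1 call was lost, the averaged Rpph1. Genes called in Esr1 glands at 24 against 12 months numbered 366, and 116 on deposited TPM, 192 by protein-coding total, 607 unfiltered, 14 fitted alone, 650 without high ribosomal RNA and 165 to 614 leaving out 1 library. Averaged, they were 1835, and 946, 1134, 268 (fitted alone), 1166 (without high ribosomal RNA) and 700 (without the uninduced Esr1 replicate 2 of 24 months) to 3071. Between models they were 3365 uninduced (596 on deposited TPM, 1689 by protein-coding total, 1608 fitted alone, 2108 to 4081 leaving out 1 library) and 1947 after long induction (839 on deposited TPM). Of 10 pairs of rows, the 7SL copies counted singly and paired with each other, 8 correlated, 1 within 12- and 18-month libraries; with the copies summed 4 of 6 did. The cause of these changes was not tested. The replicate numbers do not pair the libraries: of 48 correlations of same-numbered libraries 16 were over 0.1 (-0.48 to 0.36), and every one of a comparison in 1 of 16. With a replicate block 2, 2 and 3 rows stayed called, the outcome changed in 0 of 162 tests of the rows, and gene calls over all comparisons were 8173 against 8108. Depth is unknown, and precision rests on 3 libraries per group.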
